A study of Mus musculus with 6 samples.

Results

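The NMDA receptor subunits are the 7 genes Grin1, Grin2a, Grin2b, Grin2c, Grin2d, Grin3a and Grin3b, which encode GluN1, GluN2A to GluN2D, GluN3A and GluN3B. They were taken by gene symbol from the transcript tables of each library, without regard to their values, and all 7 had a value among the 25202 genes compared. The question was how much RNA of each subunit the injured retina held, and whether it differed after stem cell factor (SCF), the ligand of the receptor tyrosine kinase c-kit. Retinal mRNA of wild type C57BL/6 mice (C57BL/6J in the study's methods), given as postnatal week 5, was sequenced in 3 NMDA + PBS and 3 NMDA + SCF libraries. Mice of both groups had received NMDA into the vitreous, so the retinas of both groups had been exposed to the agonist of the receptor described here, and no uninjured retina was among the libraries. The NMDA + SCF mice received recombinant SCF into the vitreous 2 days after NMDA, the NMDA + PBS mice received the vehicle, and retinas were taken 1 week after SCF. How many mice went into a library was not stated, and the p-values measure the spread between these libraries, which may be in part technical.

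NMDA receptors are ion channels opened by glutamate together with a coagonist, glycine or D-serine. Each receptor combines the obligatory GluN1 subunits, which bind the coagonist, with GluN2 subunits, which bind glutamate, or with GluN3 subunits, which bind glycine. They admit calcium, and in the retina they are found mainly on retinal ganglion cells and amacrine cells, where overstimulation kills neurons.

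The 7 genes are related in sequence. The longest run of bases shared exactly by the analysed transcripts of any pair of members was 34 bases, for Grin2b and Grin2c, which is shorter than the mean read length of 149.5 to 149.9 bases.

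The GluN2 proteins share their last residues, which bind the PDZ domains of postsynaptic scaffolds such as PSD-95. The last 27 bases of the coding sequence in GENCODE M21, stop codon included, are given with capitals where the 4 genes have the same base, since the scaffold genes are described further on.
Grin2a: aTgcCtAGtaTtGAaTCtGAtGTcTaA
Grin2b: cTttCtAGtaTtGAgTCtGAtGTcTgA
Grin2c: aTctCcAGccTgGAaTCaGAaGTgTgA
Grin2d: tTctCcAGccTgGAgTCcGAgGTaTgA
These ends lie on the reverse strand of GRCm38 at chr16:9577827-9577853 (Grin2a), chr6:135732098-135732124 (Grin2b), chr11:115249571-115249597 (Grin2c) and chr7:45832780-45832806 (Grin2d), and 15 of the 27 positions were identical.

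The libraries held 44925938 to 48783182 clean reads, and 3404335 to 4440584 fragments stood behind the FPKM values, which are scaled by library size and per length of transcript. The files had been quantified on different transcript lists. NMDA + PBS replicate 1 and the 3 NMDA + SCF libraries shared list A, and NMDA + PBS replicates 2 and 3 shared list B. Levels were therefore summed per gene over transcripts of both lists. The libraries still parted by list after this summing. On the log2(FPKM + 1) scale of the gene sums, principal component 1 (53.3% of variance) set the list B libraries (68.6 and 94.9) apart from the list A libraries (-45.2 to -35.9). The differences of the subunit genes above the floor are for this reason given also within list A, where NMDA + PBS replicate 1 is the only control. Summed FPKM of 8 lens markers was 23.4 to 302 in the NMDA + PBS libraries and 457 to 9525 in the NMDA + SCF libraries. The retinal ganglion cell markers summed to 298 to 474 and 268 to 325 (10 of 12 genes with a value, Isl1 and Pou4f1 with none), and the amacrine cell markers to 247 to 324 and 289 to 345 (10 of 11, Th with none). The groups did not overlap for the rod markers, which summed to 1305 to 1606 and 1615 to 1891 (7 of 7 with a value), or for the bipolar cell markers, with 255 to 291 and 297 to 323 (7 of 8, Grm6 with none). Gene by gene, 8 ganglion cell markers were lower and 2 higher in NMDA + SCF, and 5 amacrine cell markers went each way. Rod markers and bipolar cell markers each had 5 genes higher and 2 lower. The part of these shifts in the results below was not tested.

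The annotation holds 39 transcripts of the 7 genes, 27 of them protein-coding, and 14 transcripts, 8 of them coding, stood in both lists. Grin1 was covered least. Of its 14 annotated transcripts, 8 of them coding, 3 were analysed, and all 3 were processed transcripts with no annotated protein (Grin1-211, Grin1-212 and Grin1-214). They hold between 9.92 and 21.5% of the gene's coding sequence each. The value of Grin1 given here is therefore the value of these transcripts and not the level of the GluN1 messenger RNA. Grin3a likewise had no coding transcript in both lists, since Grin3a-202 was in list A only. Grin2b-201, with 14 exons and 24060 bases, Grin2a-206, with 14 exons and 14634 bases, Grin2d-201 and Grin2d-203, Grin2c-202 and Grin3b-201 each hold the whole coding sequence of their gene.

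**Figure D1:**
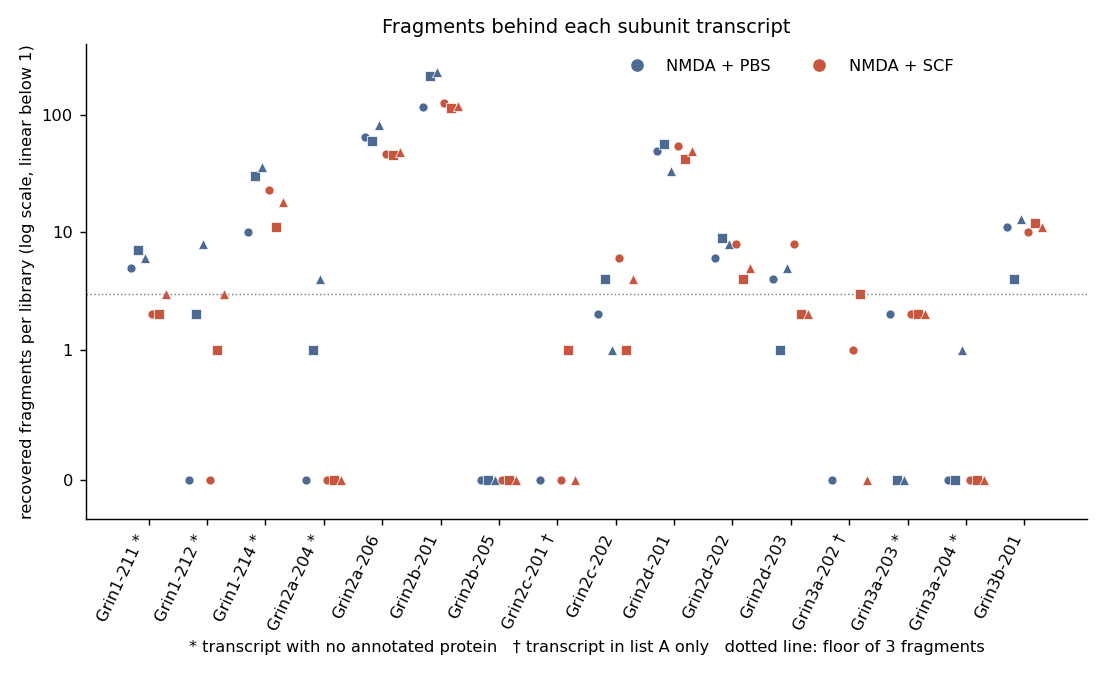
Fragments recovered for each analysed transcript of the NMDA receptor subunits, with 1 point per library, coloured by group and shaped by replicate number, on a log axis that is linear below 1. Grin2b-201 had 114 to 229 fragments and Grin2a-206 had 45 to 82, while Grin2b-205 had 0 in every library.

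Grin2d, a GluN2 gene, had the highest level, followed by Grin1, Grin2b, Grin2a, Grin3b, Grin2c and Grin3a. Mean FPKM over the 6 libraries, a scale per transcript length, was 4.36 ± 0.878 (SD, n = 6) for Grin2d, 2.91 ± 1.60 for Grin1, 1.68 ± 0.388 for Grin2b and 1.11 ± 0.244 for Grin2a. It was 0.848 ± 0.272 for Grin3b, 0.171 ± 0.119 for Grin2c and 0.112 ± 0.0667 for Grin3a. Grin2d exceeded 69.9% of the 25202 genes in mean FPKM, Grin2a 46.1% and Grin3a 12.3%.

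The place of a subunit in this order varied from library to library. Grin2d was first in 5 of 6 libraries and Grin1 was first in NMDA + PBS replicate 3. In that library 2.84 of the 5.65 FPKM of Grin1 came from 8 fragments of Grin1-212. The Grin2d sums include 1.14 to 2.31 FPKM of the short transcript Grin2d-202, from 4 to 9 fragments per library. Grin2b exceeded Grin2a in 6 of 6 libraries, by 0.35 ± 0.17 (SD, n = 6) on the log2(FPKM + 1) scale (exact paired permutation test over libraries, two-sided, p = 0.03125, the smallest p that 6 libraries allow, adjusted p = 0.0938 over the 6 neighbouring pairs). Grin3b exceeded Grin2c in 6 of 6 libraries, by 0.65 ± 0.31, with the same exact p and adjusted p, so neither pair passed 0.05 after adjustment. Among protein-coding transcripts only, where Grin1 and Grin3a drop out and fewer pairs are compared, the adjusted p of both pairs was 0.0469. The other 4 neighbouring pairs had larger p-values, with adjusted exact p of 0.125 for Grin1 over Grin2b, 0.188 for Grin2d over Grin1, 0.225 for Grin2a over Grin3b and 0.375 for Grin2c over Grin3a.

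**Figure D2:**
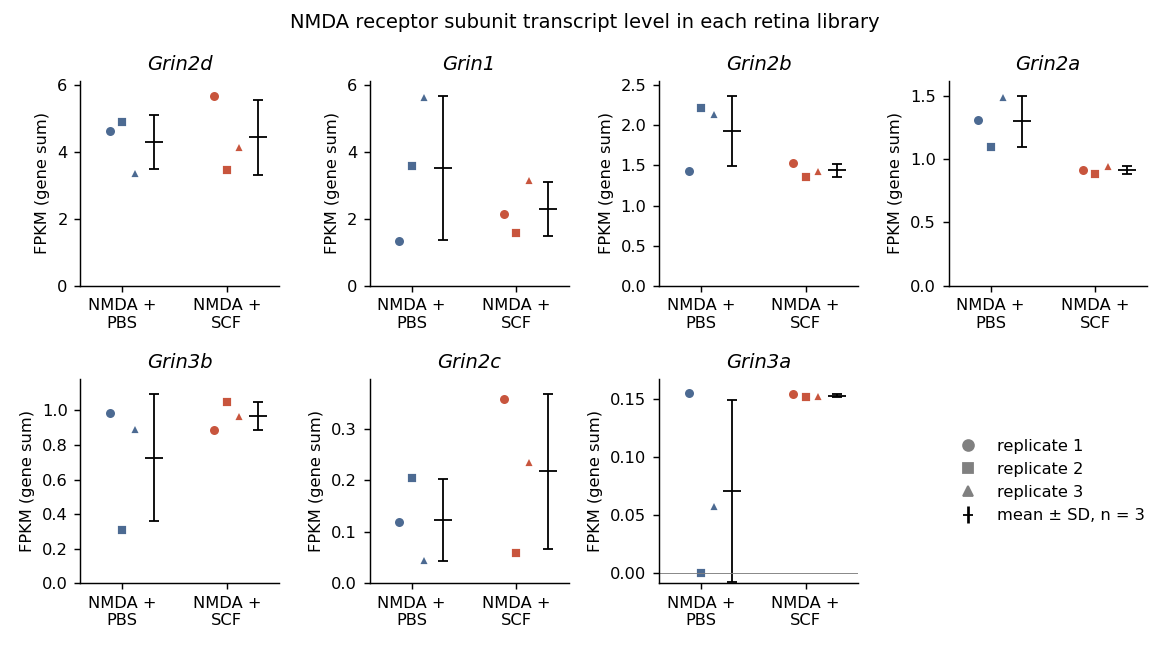
FPKM of each subunit gene, summed over transcripts of both lists, in the 6 retina libraries, in the order of the mean level. Points are libraries, bars give the mean ± SD (n = 3), and the groups are fully separate for Grin2a alone.

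Between the groups, 0 of the 7 subunit genes passed the test of the study's thresholds, a change of 2-fold or more at a p, adjusted by Benjamini-Hochberg, of up to 0.001 in limma on log2(FPKM + 1), and 0 of 25202 genes (0.0%) did. The study itself reported differentially expressed genes at these thresholds, from a test that its methods do not name. At an unadjusted p of at most 0.05, limma called 0 members and 2324 genes (9.22%). Of these genes 46.9% were higher in NMDA + SCF, and this share was 29.3% under upper quartile scaling and 34.1% under median-of-ratios scaling. The median log2 fold change was 0.03 over the 7 members and -0.01 over all genes, with 4 members higher and 3 lower, and it was -0.11 over the 6 members with more than 3 fragments in some library. For 1 member, Grin2a, all NMDA + SCF libraries lay below all NMDA + PBS libraries, a pattern that 6.45% of all genes showed. No member had all NMDA + SCF libraries above, which 7.63% of genes showed. In bulk retina, fewer cells of a type and less RNA per cell cannot be told apart.

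Grin2a, the GluN2 subunit that predominates at mature synapses, had an FPKM of 1.30, 1.10 and 1.49 in the NMDA + PBS libraries and 0.917, 0.884 and 0.948 in the NMDA + SCF libraries. The groups did not overlap, and the lowest NMDA + PBS library lay above the highest NMDA + SCF library. The group means were 1.30 ± 0.199 and 0.916 ± 0.0324 (SD, n = 3 each). On the log2(FPKM + 1) scale the difference was -0.26 with a standard error of 0.272 and an adjusted p of 0.739 in limma, and the exact permutation p of the same difference was 0.1 (two-sided), the smallest that 3 against 3 libraries allow. The 95% confidence interval ran from -0.90 to 0.38. The value was -0.27 within list A, against its single control library, and -0.25 against the list B controls. The gene lies on chromosome 16 at 9567898 to 9995560, and 45 to 86 fragments stood behind each value.

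The single transcripts of Grin2a divided this signal. The coding transcript Grin2a-206 had 1.30, 1.03 and 1.26 FPKM in the NMDA + PBS libraries and 0.917, 0.884 and 0.948 in the NMDA + SCF libraries, so its groups did not overlap either. Grin2a-204, a transcript with a retained intron, had 0, 1 and 4 fragments in the NMDA + PBS libraries and 0 in every NMDA + SCF library. The fitted difference of Grin2a-206 was -0.20 with an adjusted p of 0.830 in limma over all transcripts.

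Grin2b, the GluN2 subunit of early development that persists in the adult, had 1.43, 2.22 and 2.14 FPKM in the NMDA + PBS libraries and 1.53, 1.36 and 1.43 in the NMDA + SCF libraries. NMDA + PBS replicate 1 lay among the NMDA + SCF libraries, and the replicates of list B lay above all others. The difference was -0.25 on the log2(FPKM + 1) scale with a standard error of 0.299 and an adjusted p of 0.769 in limma, and it was 0.01 within list A. All fragments of the gene, 114 to 229 per library, came from Grin2b-201, and Grin2b-205 had 0 fragments in all 6 libraries, which allows up to 3 fragments in each by counting error alone.

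Grin2d, a GluN2 subunit that gives slowly closing channels, had 4.62, 4.88 and 3.37 FPKM in the NMDA + PBS libraries and 5.66, 3.47 and 4.15 in the NMDA + SCF libraries. The groups overlapped. The difference was 0.03 with a 95% confidence interval of -0.62 to 0.68, and its sign turned under both other scalings (-0.07 and -0.03) and within list A (-0.07). Grin2d-201 carried most fragments, 33 to 56 per library. The short coding transcript Grin2d-202, of 4 exons and 1009 bases, had 4 to 9 fragments and 1.14 to 2.31 FPKM, and Grin2d-203 had 1 to 8 fragments. The gene shares 643 exon bases with Gm45441 on the opposite strand, listed at 0, 11.0 and 4.38 FPKM in the NMDA + PBS libraries and at 0, 0.800 and 0 in the NMDA + SCF libraries, and whether the counting used strand is not given in the sources used here.

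Grin2c, the GluN2 subunit best known from the cerebellum, stood near the floor, with 2, 4 and 1 fragments in the NMDA + PBS libraries and 6, 1 and 4 in the NMDA + SCF libraries. Its FPKM was 0.120, 0.205 and 0.0460 against 0.358, 0.0587 and 0.236, and the groups overlapped. The difference was 0.11 with a standard error of 0.135 and an adjusted p of 0.776 in limma, it was also 0.11 within list A, and a difference was not detectable at this depth.

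Among the shares of the GluN2 transcripts, Grin2d, summed over its 3 transcripts, took the largest in every library. It held 61.8, 58.1 and 47.8% of the summed FPKM of Grin2a to Grin2d in the NMDA + PBS libraries and 66.9, 60.1 and 61.4% in the NMDA + SCF libraries. These shares include Grin2d-202, which covers 4.81% of the coding sequence of Grin2d. In NMDA + PBS replicate 3 it had 1.79 FPKM from 8 fragments, with 1.37 for Grin2d-201 and 0.215 for Grin2d-203. Grin2b-201 had 2.14 FPKM there, so the lead of Grin2d in that library rested on Grin2d-202. Grin2b held 19.1, 26.4 and 30.4% against 18.1, 23.6 and 21.1%, which gave means of 25.3 ± 5.72% and 20.9 ± 2.77% (SD, n = 3 each). The groups overlapped for all 4 shares, and the exact permutation test over libraries gave p = 0.3 for each (two-sided, 4 shares tested, the smallest p possible being 0.1).

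**Figure D3:**
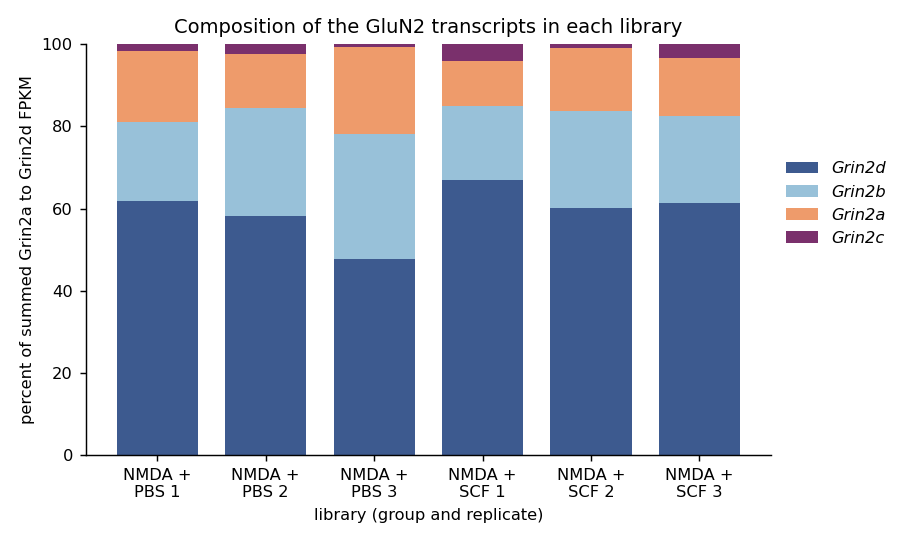
Percent of the summed FPKM of Grin2a, Grin2b, Grin2c and Grin2d held by each gene in the 6 libraries. Grin2d held 47.8 to 66.9%, Grin2b 18.1 to 30.4%, Grin2a 10.8 to 21.2% and Grin2c 0.653 to 4.23%.

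The ratio of Grin2b to Grin2a, which falls as synapses mature, was 1.10, 2.02 and 1.44 in the NMDA + PBS libraries and 1.67, 1.54 and 1.51 in the NMDA + SCF libraries. The NMDA + SCF libraries lay inside the range of the NMDA + PBS libraries. The difference of the mean log2 ratio was 0.09 (exact permutation test, two-sided, p = 0.7).

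Grin1, the obligatory subunit, had 1.34, 3.57 and 5.65 FPKM in the NMDA + PBS libraries and 2.15, 1.56 and 3.17 in the NMDA + SCF libraries, all of it from the processed transcripts named above. NMDA + PBS replicate 1 was the lowest of all libraries and replicate 3 the highest. The difference was -0.36 with a standard error of 0.445 and an adjusted p of 0.778 in limma, and it was 0.46 within list A, the opposite sign. Grin1-211 had 0.486, 0.582 and 0.447 FPKM in the NMDA + PBS libraries and 0.193, 0.190 and 0.287 in the NMDA + SCF libraries, without overlap, from 2 to 7 fragments. Grin1-214 had 10, 30 and 36 fragments against 23, 11 and 18. Grin1-212, of 634 bases, had 0, 2 and 8 fragments against 0, 1 and 3, which gave 2.84 FPKM in NMDA + PBS replicate 3. Grin1 held 13.5 to 41.4% of the summed FPKM of the 7 members, and its share differed by -6.18 percentage points between the group means (exact permutation p = 0.6).

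Over the 13 member transcripts with a value above 0 in both lists, Grin1-211 and Grin2a-206 were the 2 with all NMDA + SCF libraries below all NMDA + PBS libraries, a pattern of 6.79% of 45261 transcripts. The opposite pattern, found in 6.32% of transcripts, was shown by 0 members. The smallest adjusted p of a member transcript in limma was 0.675, for Grin1-211.

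The GluN3 genes were low. Grin3b, which with GluN1 forms receptors opened by glycine, had 0.984, 0.306 and 0.892 FPKM in the NMDA + PBS libraries and 0.889, 1.05 and 0.969 in the NMDA + SCF libraries, from 4 to 13 fragments. NMDA + PBS replicate 2 lay below all others, and the other 5 libraries lay close together. The difference was 0.21 with an adjusted p of 0.790 in limma, and it was -0.01 within list A. Grin3b shares 1046 exon bases with Tmem259 on the opposite strand, which was listed at 4.48, 1.52 and 0.646 FPKM in the NMDA + PBS libraries and at 4.27 to 5.17 in the NMDA + SCF libraries.

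Grin3a, which lowers the calcium entry of the receptor, had 2, 0 and 1 fragments in the NMDA + PBS libraries and 2 in each NMDA + SCF library. All values were at or under the floor of 3 fragments, so its fitted difference, which is part of the counts and of the plot for the 7 genes, is not read as a fold, and the coding transcript Grin3a-202 of list A had 0 fragments in NMDA + PBS replicate 1 and 1, 3 and 0 in the NMDA + SCF libraries.

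**Figure D4:**
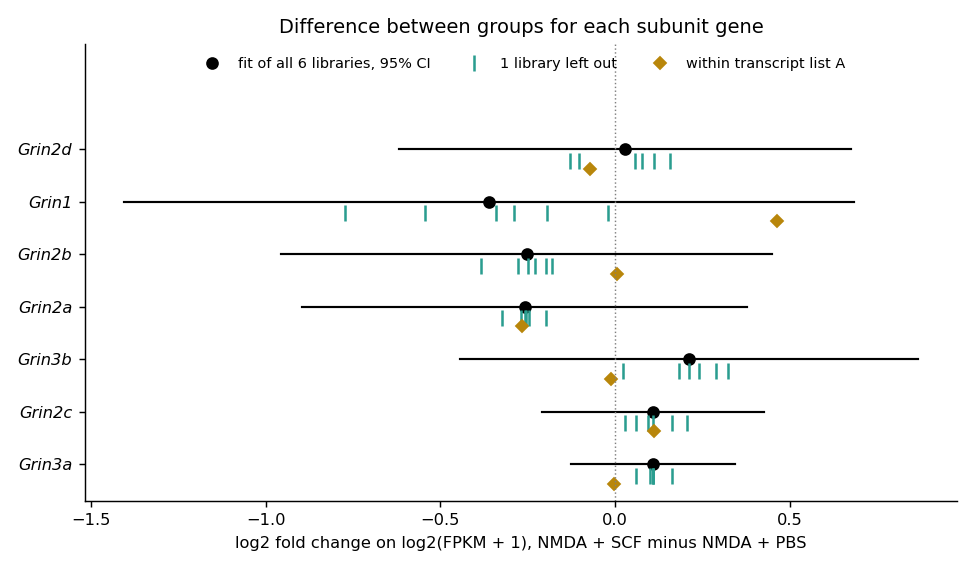
Difference of each subunit gene between NMDA + SCF and NMDA + PBS on the log2(FPKM + 1) scale. Dots with lines give the limma estimate and its 95% confidence interval from 6 libraries, ticks the estimate with 1 library left out and diamonds the value within transcript list A, and all 7 intervals hold 0.

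The genes whose pattern over the 6 libraries came nearest to the 3 members of highest level were sought among 14012 other genes of mean FPKM of at least 1, by the root mean square difference of centred log2(FPKM + 1). For Grin2d, whose own spread was 0.215, they were Zfp458, Snx20 and Specc1, at 0.047 to 0.0628. For Grin1, with a spread of 0.518, they were Copa, the alpha subunit of the coatomer, Htt, which encodes huntingtin, and 9430065F17Rik, at 0.0968 to 0.114. Copa had 8.41, 16.5 and 28.0 FPKM in the NMDA + PBS libraries and 9.95 to 17.0 in the NMDA + SCF libraries, with replicate 3 of NMDA + PBS highest as for Grin1. For Grin2b, with a spread of 0.183, they were the protocadherin gene Pcdhb22, Lrrtm2, which encodes a synaptic adhesion protein that organises excitatory synapses, and 9030624G23Rik, at 0.0446 to 0.0533. Lrrtm2 had 11.3, 13.7 and 13.8 FPKM in the NMDA + PBS libraries and 10.5 to 11.8 in the NMDA + SCF libraries, highest in the list B libraries as for Grin2b. With 6 libraries and so many genes, near matches of this kind are a description of these libraries.

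The receptor acts within a complex of scaffolds, transport proteins, coagonist enzymes, kinases and calcium-dependent targets, and 64 of 71 listed partner genes had a value. None was called at the study's thresholds. At an unadjusted p of at most 0.05, limma called 14 of 64 (21.9%), 7 higher and 7 lower, beside the 9.22% of all genes. The groups did not overlap for 10 partners higher and 10 lower in NMDA + SCF (15.6% each), beside 7.63% higher and 6.45% lower over all genes, and the median log2 fold change over the 64 was -0.04. The smallest adjusted p was 0.536, the smallest of all genes. The values that follow name, in each list, the genes of smallest p and the gene of highest level.

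Among the scaffolds, 3 of 15 measured genes were higher and 12 lower, with a median of -0.28 on the log2(FPKM + 1) scale, and it was -0.05 within list A. Dlg4, which encodes PSD-95 and binds the GluN2 ends shown above, was the most abundant, with 87.0, 158 and 125 FPKM in the NMDA + PBS libraries and 119, 101 and 124 in the NMDA + SCF libraries, and the groups overlapped. Homer1, which links receptors to Shank scaffolds, had 17.4, 27.0 and 27.3 FPKM against 13.1, 15.2 and 14.6, without overlap. Its difference was -0.68 with a standard error of 0.225, and it was -0.27 within list A.

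Among transport and accessory proteins, 4 of 10 were higher and 6 lower, with a median of -0.09. Akap9, whose product Yotiao anchors kinases and phosphatases to GluN1, had 9.86, 44.8 and 61.8 FPKM in the NMDA + PBS libraries and 5.73, 3.80 and 6.39 in the NMDA + SCF libraries. The groups did not overlap, and the difference of -2.34 was -0.81 within list A. Lin7a, an adaptor of the complex that carries NMDA receptors along microtubules, had 7.80, 8.53 and 15.9 FPKM against 4.46, 7.80 and 4.90. Its paralog Lin7c was the most abundant of the list, with 140.5 to 181 FPKM against 126 to 143, and its groups overlapped.

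Among the genes of coagonist synthesis and transport, 8 of 10 were higher and 2 lower, with a median of 0.14. Their summed FPKM was 78.8 to 99.3 in the NMDA + PBS libraries and 124 to 149 in the NMDA + SCF libraries, without overlap. Phgdh and Gldc, described next, are part of this sum. The sums of transport and accessory proteins (203.5 to 291 against 170 to 179) did not overlap either, and they include Akap9, at 9.86 to 61.8 FPKM against 3.80 to 6.39. Those of kinases and phosphatases (154 to 331 against 345 to 372) were also apart, and they include Prkaca, at 50.5 to 167 FPKM against 182 to 215. The scaffold and calcium signaling sums overlapped. Single genes can carry such sums, so the sums are not read as shifts of whole lists. Phgdh, the first enzyme of serine synthesis, had 17.8, 10.6 and 6.19 FPKM against 43.3, 21.7 and 45.4, a difference of 1.63 with a standard error of 0.418 and an adjusted p of 0.536 in limma, and 0.93 within list A. Gldc, the glycine decarboxylase of the glycine cleavage system, had 56.7, 72.5 and 51.4 FPKM against 80.0, 77.3 and 81.9, again without overlap, and its difference was 0.41 pooled and 0.48 within list A. Dao, the oxidase that degrades D-serine, was close to 0, with 0, 0.122 and 0 FPKM against 0.364, 0.419 and 0.141.

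Among kinases and phosphatases that act on the receptor, 9 of 12 were higher and 3 lower, with a median of 0.15, and it was -0.04 within list A. Prkaca, a catalytic subunit of protein kinase A, had 167, 134 and 50.5 FPKM in the NMDA + PBS libraries and 188, 182 and 215 in the NMDA + SCF libraries, and its difference was 0.89 pooled and 0.22 within list A. Dapk1, a death-associated kinase that binds GluN2B, had 0.592, 0.507 and 1.14 FPKM against 0.0717, 0 and 0.142, all from transcripts with no annotated protein. Its difference was -0.69 pooled and -0.57 within list A. Over all listed transcripts, where a transcript missing from a library's list counts as 0, the sign for Dapk1 turned, to 0.84. Csnk2a1, a catalytic subunit of casein kinase 2, had 0.583, 0.698 and 0.804 FPKM against 0, 0.456 and 0.115, likewise from a noncoding transcript.

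Among the genes of calcium signaling downstream, 7 of 17 were higher and 10 lower, with a median of -0.13, and it was 0.10 over protein-coding transcripts only. Calm3, which encodes calmodulin, was the most abundant, with 350, 191 and 244 FPKM against 272, 245.0 and 287, and overlapped between groups. Camk2d, the delta chain of calmodulin-dependent kinase II, had 31.7, 43.3 and 69.4 FPKM against 27.6, 26.3 and 17.9, from transcripts with no annotated protein. Its difference was -0.93, and -0.41 within list A. Creb1, a transcription factor activated by calcium, had 2.25, 4.46 and 4.52 FPKM against 1.60, 1.04 and 1.18. Its difference of -1.03 was -0.52 within list A and 0.10 over protein-coding transcripts only.

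**Figure D5:**
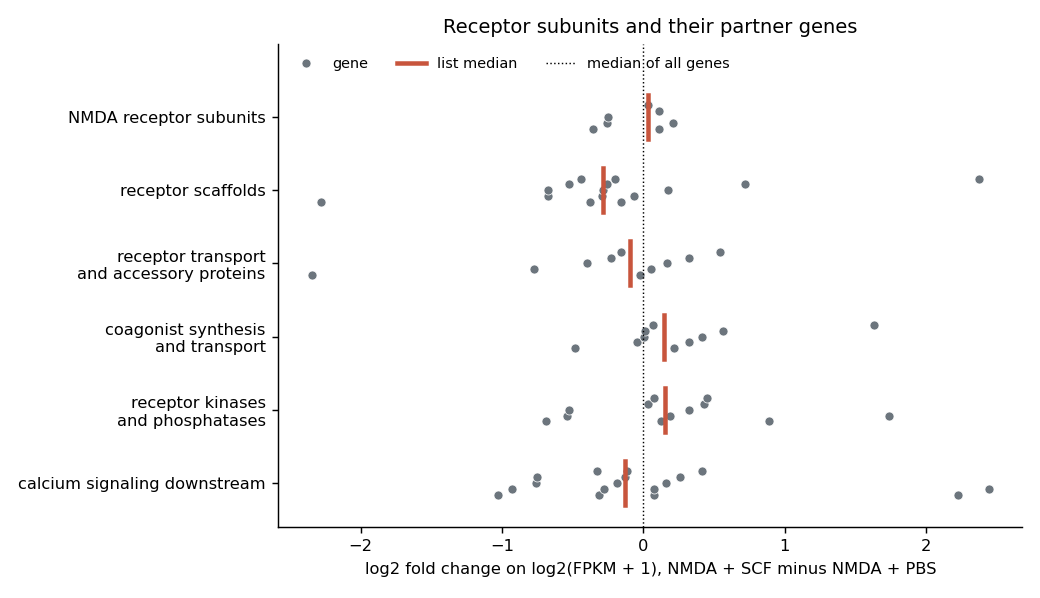
Log2 fold change on the log2(FPKM + 1) scale of each subunit gene and of each measured partner gene, by list, with the list median and the median of all genes. The 7 subunits lay between -0.36 and 0.21, while partners ranged from -2.34 for Akap9 to 2.44 for Ppp3r1. Ppp3r1 had 284, 19.8 and 22.2 FPKM in the NMDA + PBS libraries and 268, 285 and 285 in the NMDA + SCF libraries. It was thus low in the list B libraries alone.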

How the data were processed

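Polyadenylated retinal RNA was sequenced in 3 NMDA + PBS and 3 NMDA + SCF libraries. For each library the deposited files give transcript FPKM, as computed by the authors, beside a table of sequencing totals whose clean read counts were used for depth. Aligner and counter are not given in the sources used here. The submitters' processing notes name mm9, while 98.1% of the 63345 Ensembl transcripts found in GENCODE M21 have its GRCm38 positions, so coordinates are given on GRCm38. Transcripts of a merged assembly, without gene names (8.85 to 11.4% of summed FPKM), were left out.

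Gene levels are sums of FPKM over those Ensembl transcripts, 46933 in all, that both lists hold (7529 in list A only, 8966 in list B only). Fragments were recovered as FPKM times length, and 98.4 to 98.5% of values gave whole numbers (tolerance 0.05 fragments, or the rounding in the file where larger). Floors of 3 fragments cover counting error only. The whole table was fitted on log2(FPKM + 1) in limma 3.58.1 (R 4.3.3) with a variance trend and condition only, without a filter except genes at 0 in every library. Fold changes on this scale understate changes of low genes. The fit was tested on simulated data. Levels and shares were compared with exact permutation tests in Python 3.11.15. Members and lists were chosen with earlier results of these data known. Named genes were the members, in each partner list the 2 genes of smallest p and the one of highest mean FPKM, the 3 nearest patterns to each of the 3 most abundant members, and marker genes without a value; Ppp3r1, Gm45441 and Tmem259 were added after their values were seen. Alternatives were other scalings, filters, pseudocounts, transcripts, thresholds and tests, a replicate block, a term for the transcript list, and each library left out. Some results for single items are not reported here.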

Additional observations from a re-analysis of the deposited data

How the results depend on the processing

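No member passed the thresholds under any alternative run, and members at an unadjusted p of at most 0.05 numbered 0 in limma and in voom on recovered fragments. Genes called numbered 0 in the other fits and 2324 at an unadjusted p alone. With single libraries left out they ranged from 0 to 55, with 55 without NMDA + PBS replicate 1, where control and transcript list cannot be told apart. Of the calcium signaling list, 0 to 1 genes were then called, the one being Ppp3r1. The median log2 fold change of the members was -0.073 under upper quartile scaling, -0.26 for genes of mean FPKM of at least 1 (4 members), 0.19 with voom, -0.11 without Grin3a (an alternative chosen after the data were seen), and -0.13 to 0.11 with single libraries left out, lowest without NMDA + SCF replicate 1. The signs of Grin1 (0.46), Grin2b (0.0063), Grin2d (-0.070), Grin3a (-0.0028) and Grin3b (-0.012) turned with the list as a term, which equals NMDA + PBS replicate 1 alone against the NMDA + SCF libraries. Grin2d also turned under upper quartile (-0.073) and median-of-ratios scaling (-0.033) and ranged from -0.13 to 0.16 with single libraries left out. Grin2a and Grin2c kept their sign in all alternatives run. The log2 difference of Grin2b over Grin2a (0.38) and Grin3b over Grin2c (0.65) passed an adjusted p of 0.05 among protein-coding transcripts only. The share of Grin1 changed by -13.4 to 0.52 percentage points with single libraries left out, positive without NMDA + PBS replicate 3. Same-numbered libraries did not deviate together (r over genes of -0.064 to -0.039), and a replicate block called 0 genes and left the members' median at 0.03. Where no value is given beside a change, its cause was not tested. Grin2c and Grin3a are limited by depth.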
